A study of Mus musculus with 2 samples.

Results

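The nuclear genes for subunits of the respiratory chain and of ATP synthase were examined in alveolar macrophages, the resident phagocytes of the lung air spaces. Genes were taken by symbol (Nduf subunits of complex I, Sdha to Sdhd, Uqcr genes with Cyc1, Cycs, Cox4 to Cox8 and Atp5 genes), without pseudogenes, and each was read from the array feature with the highest mean. This gave 80 of the 22180 genes that had a feature with a single symbol, from 93 features. A further 10 features that carried several symbols were not used, and 8 genes found only on those, among them Cox6c, Uqcr10, Ndufb2 and Ndufs6, have no value here. The series held 1 array of sorted cells from Lysm-Cre mice, the control, and 1 from the genotype Lysm-CreSsu72fl/fl. The mice were 8 to 10 weeks old and kept pathogen-free. Both groups carry Cre at the lysozyme 2 locus, which is active in myeloid cells in general and not in alveolar macrophages alone, and in the second group the allele of Ssu72, a phosphatase of the RNA polymerase II tail, is flanked by recombination sites. The number of mice behind each array is unknown here. Since each genotype had 1 array, no test between them could be made; every value describes these 2 arrays, and their number limits the precision.

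The respiratory chain sits in the inner mitochondrial membrane. Complexes I and II pass electrons from NADH and succinate to ubiquinone, complex III passes them to cytochrome c and complex IV to oxygen; complexes I, III and IV pump protons, and ATP synthase, complex V, uses the return flow to make ATP. Most subunits are encoded in the nucleus and must be matched by the subunits made inside mitochondria. Resting alveolar macrophages live on lipid-rich surfactant in an oxygen-rich space and are known for their reliance on oxidative metabolism.

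All values are on the deposited log2 scale, and a difference is Ssu72fl/fl minus control. A floor was set at 4.65, the 50th percentile of all values, and a gene was compared where its mean of both arrays was above it, a filter that favours neither direction. To judge size, each difference is set against its spread, a robust SD taken over all compared genes of similar mean level, which measures scatter between genes, not between animals. It was 0.11 for mean levels from the floor to 5, 0.18 from 5 to 5.5, 0.24 from 5.5 to 6, 0.32 from 6 to 7 and 0.30 from 7 to 8. Bright genes were generally lower on the array labelled Ssu72fl/fl: the median difference of all genes was -0.19 at levels 6 to 7 and -0.42 at levels 7 to 8, with 95th percentiles of all features of 6.14 and 5.94. A level-adjusted difference, left after a curve of this trend was removed, is therefore given beside the deposited one. Ssu72 itself read 4.86 and 4.998 (0.14), no lower on the array labelled as carrying the floxed allele, so its feature does not check that label. Of 14 alveolar macrophage markers with a feature, 14 were above the floor, with a summed signal (log2) of 11.23 on the control array and 10.98 on the other. The 10 markers of alveolar type 2 cells summed to 9.70 and 9.43, led by Sftpc (8.71 and 8.35). Of monocyte markers 5 of 6 were above the floor (8.03 and 7.65), and of ciliated and club cell markers 2 of 4 (8.41 and 8.40). Above the floor were also 5 of 7 neutrophil, 4 of 6 T cell, 3 of 4 B cell, 5 of 5 endothelial and 3 of 5 fibroblast markers. None of these had a mean level over 6, a level passed by 1 monocyte marker and 1 ciliated and club cell marker. What part other cells had in the results was not tested, and in sorted bulk cells fewer cells of a type and less RNA per cell cannot be told apart.

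Respiratory subunit genes were lower more often than higher on the array labelled Ssu72fl/fl, by small amounts. Of 80 genes, 68 were compared, and 43 of them (63.2%) were lower and 25 higher, beside 52.7% lower among all 12040 genes compared. Their median difference was -0.07, and that of all genes -0.01. Lower by more than the spread at their level were 23 members (33.8%), against 19.4% of all genes, and higher by more than it 7 (10.3%), against 14.3%. The spread is taken around the median at each level, but differences were counted from 0. Bright genes close to the level trend are thus counted as lower, as Cox6a1 (-0.55, adjusted -0.08) and Atp5b (-0.36, adjusted 0.03). The levels also differed: 6721 of the 12040 genes had a mean level up to 5, against 24 of 68 members. Lower by at least 0.32 were 15 of 68 (22.1%), against 6.74% of all genes, and higher by at least 0.32 were 0, against 2.23%. At least 1.5-fold lower were 5 members, Uqcrb, Atp5g2, Atp5h, Ndufb7 and Ndufa6, against 1.48% of all genes; 0 were 1.5-fold higher, against 0.341%. At 2-fold there were 0 lower and 0 higher, against 0.0914% and 0.0332%. After level adjustment 34 were lower, 34 were higher and the median was 0.0047 beside 0.015 for all genes, and the count of 5 became 0; 45.8% of all genes were then lower. Quantile normalization also gave 34 lower of 68, beside 48.1% of all genes.

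**Figure D1:**
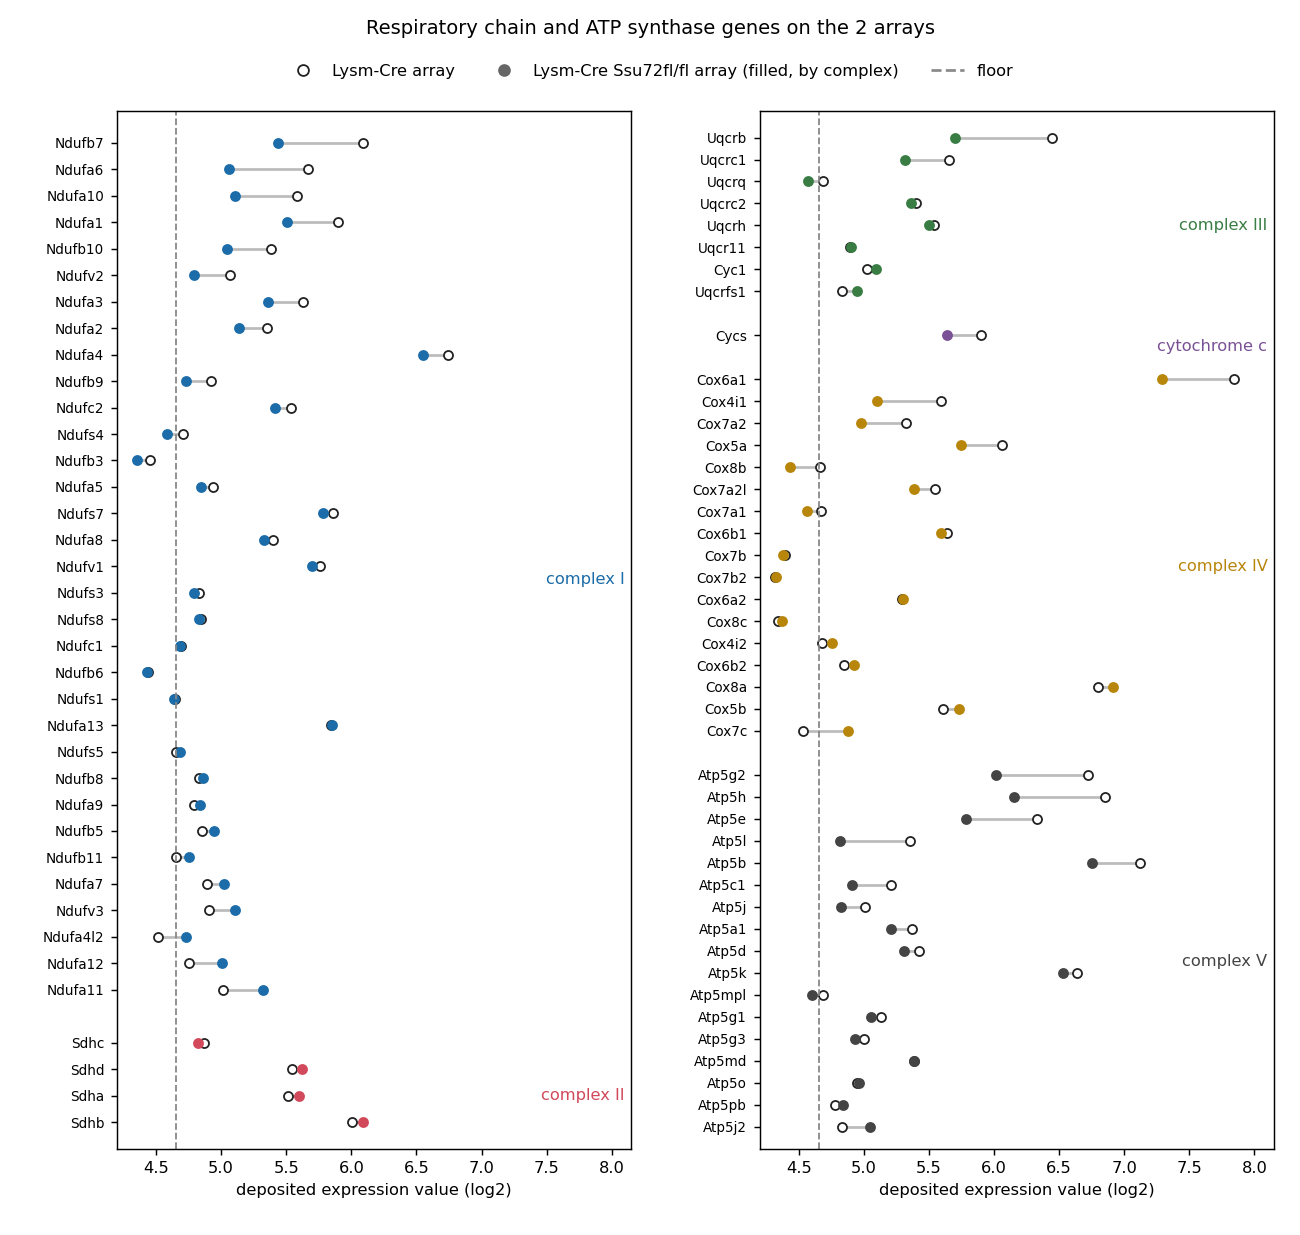
Deposited log2 values of the 80 subunit genes on the Lysm-Cre array (open circles) and the Lysm-CreSsu72fl/fl array (filled circles), ordered by difference within each complex; the dashed line is the floor of 4.65. The widest gaps run to the left, to lower values on the Ssu72fl/fl array, as for Uqcrb (6.45 and 5.70) and Atp5g2 (6.72 and 6.02), while 3 of the 4 complex II genes lie slightly to the right.

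The share of lower genes differed with signal level. Between the floor and a mean level of 5, 9 of 24 subunit genes were lower (37.5%), beside 47% of all genes at that level, and their median was 0.03. Between 5 and 6, 26 of 34 were lower (76.5%), beside 56.5%, and 9 of 34 were lower by at least 0.32 (26.5%), beside 8.87%. Between 6 and 7, 7 of 9 were lower, beside 71%, and 5 of 9 were lower by at least 0.32, beside 34.2%. Within the middle range the adjusted median of members was -0.10 at levels 5 to 5.5, beside 0.02 for all genes, but 0.05 at levels 5.5 to 6, beside 0.02. Across the 68 genes the difference correlated with mean level (Pearson r = -0.475, Spearman rho = -0.465), as it did over all 12040 genes (-0.349 and -0.216). After adjustment the values for the 68 were -0.0735 and -0.14; all values come from the same 2 arrays, and genes are not independent replicates. The genomic span of the genes showed almost no relation to the difference (r = 0.04).

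**Figure D2:**
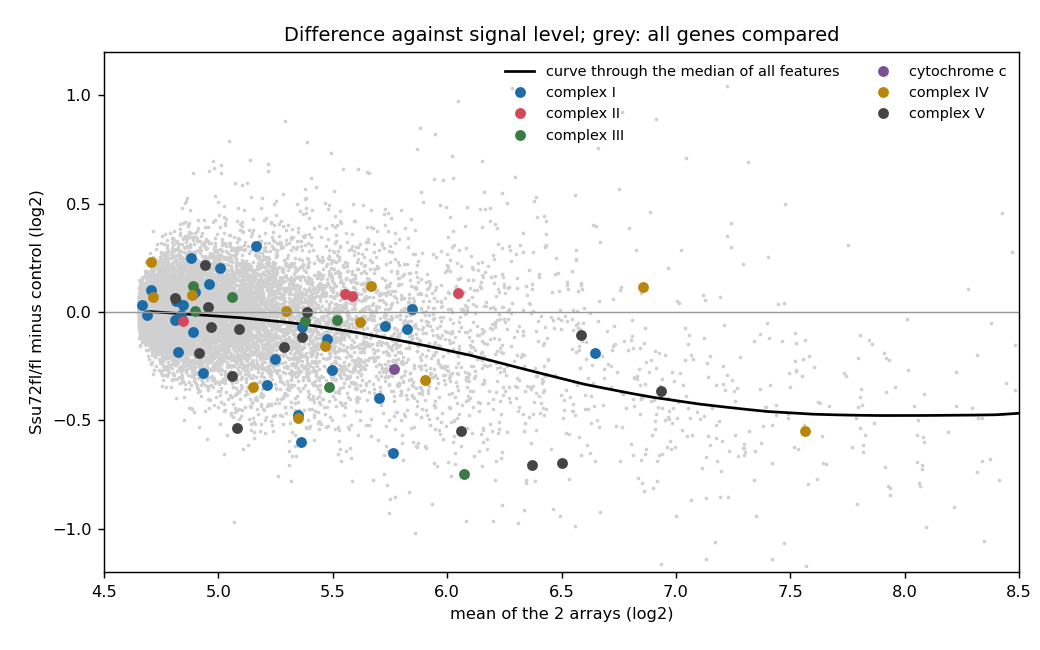
Difference (Ssu72fl/fl minus control, log2) against the mean of both arrays (log2) for all genes compared with a mean level up to 8.5 and a difference within 1.2 (grey) and for the 68 subunit genes, coloured by complex; the line runs through the medians of all features. Subunit genes scatter around the line, with Cox8a (0.11) and Sdhb (0.09) above it and Uqcrb (-0.75) below it.

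Promoter sequence was looked at because many of these genes are known targets of the transcription factor NRF1 (the nuclear respiratory factor), of GABPA, an ETS-family factor, and of YY1. Windows of 250 bases before to 50 after the gene start were taken from RefSeq, build GRCm38.p6, and 65 of the 80 genes had at least 1. The 200 bases before the start are shown, 5′ to 3′ in the direction of the gene, for the lowest members of complexes IV, V and I whose feature lies among file neighbours of its own gene, a check described with the genes that have several features, and for a pair from complex II, which went slightly the other way. Capitals mark matches to the NRF1 motif.
Cox6a1 (chr5:115348959-115349158, minus strand): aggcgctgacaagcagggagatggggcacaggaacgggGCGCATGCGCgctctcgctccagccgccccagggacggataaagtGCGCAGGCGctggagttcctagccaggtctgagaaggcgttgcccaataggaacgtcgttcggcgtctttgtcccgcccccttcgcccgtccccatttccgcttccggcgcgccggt
Atp5g2 (chr15:102671048-102671247, minus strand): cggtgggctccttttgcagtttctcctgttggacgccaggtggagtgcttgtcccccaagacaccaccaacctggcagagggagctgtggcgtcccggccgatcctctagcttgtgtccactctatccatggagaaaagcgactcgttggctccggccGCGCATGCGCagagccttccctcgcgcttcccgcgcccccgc
Ndufb7 (chr8:83566558-83566757, plus strand): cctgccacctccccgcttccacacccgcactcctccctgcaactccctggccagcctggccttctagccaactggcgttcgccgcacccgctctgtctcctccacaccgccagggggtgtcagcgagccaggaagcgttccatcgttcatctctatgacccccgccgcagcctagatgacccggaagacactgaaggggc
Sdhd (chr9:50603850-50604049, minus strand): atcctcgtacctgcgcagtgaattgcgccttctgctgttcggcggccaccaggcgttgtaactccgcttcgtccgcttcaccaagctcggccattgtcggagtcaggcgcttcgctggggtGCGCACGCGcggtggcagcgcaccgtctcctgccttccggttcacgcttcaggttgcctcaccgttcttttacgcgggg
Sdhb (chr4:140961071-140961270, plus strand): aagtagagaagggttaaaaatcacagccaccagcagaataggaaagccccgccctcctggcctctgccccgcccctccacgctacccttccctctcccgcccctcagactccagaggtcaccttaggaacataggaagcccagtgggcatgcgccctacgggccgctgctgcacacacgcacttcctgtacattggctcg

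Cox6a1 held matches to GCGCANGCG beginning 162 and 117 bases before the start, Atp5g2 held 1 beginning 42 bases before it and Sdhd 1 beginning 79 bases before it; in Cox6a1 and Atp5g2 the first also read as a match on the other strand. The letters were not in these stretches of Ndufb7 and Sdhb. Nor were they in the like stretch, not shown, of Uqcrc1, the lowest such member of complex III, though its full window held them. The highest such members of complexes I, III, IV and V, Ndufa12, Uqcrfs1, Cox5b and Atp5j2, also lacked them there. The motif, searched on both strands, was in the windows of 19 of 65 subunit genes (29.2%), beside 12.1% of 9356 genes compared on the array and 6.25% of all 32851 windows. The 65 include genes with a mean under the floor, and the 9356 do not, so these shares have unlike bases. The same holds for the other motif shares below. The 19 genes were Atp5c1, Atp5g2, Atp5g3, Atp5h, Atp5k, Atp5l, Atp5o, Cox6a1, Cycs, Ndufa5, Ndufa6, Ndufa8, Ndufa11, Ndufb10, Ndufs5, Sdha, Sdhd, Uqcr11 and Uqcrc1. Their median difference was -0.11 with 13 of 19 lower, and that of the 39 compared genes without the letters -0.04 with 23 lower. Adjusted medians were -0.08 and 0.05. The 19 include Atp5h (-0.70), Cycs (-0.26) and Ndufa11 (0.30), which were read from features away from the locus of the gene. Of all 1135 compared genes with the letters 57.6% were lower, with a median of -0.03. A form longer by a final C was in 15 of 65 (23.1%), beside 9.01%. The ETS letters CCGGAAGT were found in 5 of 65 genes (7.69%), beside 6.96% of genes on the array, and the YY1 letters AAGATGGCG in 6 (9.23%), beside 2.68%. For these motifs the order was the other way on the deposited scale, from 5 compared genes with each. Medians were -0.04 with the ETS letters and -0.07 without, and -0.01 with the YY1 letters and -0.07 without. After adjustment the ETS medians, 0.018 with and 0.026 without, had the order seen for NRF1. The adjusted YY1 medians, 0.055 with and 0.018 without, did not. Matches of different motifs were counted separately, overlaps included.

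Complex I, the entry point for electrons from NADH, was mixed. Of 33 genes 28 were compared, with 18 lower, 10 higher and a median of -0.07 (adjusted -0.01). Ndufb7, a subunit of the membrane arm, had a control value of 6.09 and 5.44 on the other array, the order of each pair of values from here on. That was 1.57-fold lower (-0.65, adjusted -0.53, spread 0.24). Ndufa6, an accessory subunit of the matrix arm, read 5.66 and 5.06 (-0.60, adjusted -0.55, spread 0.18). Ndufa10, at 5.58 and 5.11 (-0.47), and Ndufa1, at 5.90 and 5.51 (-0.40), both of the membrane arm, followed. These 4 differences were larger than the spread at their level, before and after adjustment. Ndufb10 (5.38 and 5.05), Ndufa3 (5.63 and 5.36) and Ndufa2 (5.36 and 5.14) were lower by less, with differences of -0.33, -0.27 and -0.22.

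The higher genes of complex I were mostly dim. Ndufa11, an accessory subunit of the membrane arm, read 5.01 and 5.32 (0.30, adjusted 0.34), from a feature that did not lie among neighbours of its gene. Its other feature, which did, read 4.80 and 4.99 (0.19). Ndufa12 read 4.76 and 5.004 (0.25, spread 0.11), Ndufv3 4.91 and 5.11 (0.20) and Ndufa7 4.89 and 5.02 (0.13). Each of these exceeded its spread. Of the subunits that carry the redox centres in the matrix arm, the NADH-binding Ndufv1 read 5.76 and 5.69 (-0.06, adjusted 0.06) and its partner Ndufv2 5.07 and 4.79 (-0.28, spread 0.11). The iron-sulfur proteins Ndufs7 (5.86 and 5.78) and Ndufs8 (4.84 and 4.83) and the core subunit Ndufs3 (4.83 and 4.79) differed by less than their spread. Ndufs1, the largest iron-sulfur subunit, was under the floor on both arrays (4.64 and 4.64).

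Of 12 compared matrix arm genes 8 were lower (median -0.05, adjusted 0.02), 1 of them by at least 0.32. Of 15 membrane arm genes 9 were lower (median -0.07, adjusted -0.02), 4 by at least 0.32. Among all genes 52.7% were lower, and 6.74% by at least 0.32. Whether the arms differ could not be tested. The remaining members lay close to 0: Ndufb9 at -0.19, Ndufc2 at -0.13, Ndufa5 at -0.09, Ndufa8 at -0.07, Ndufc1 at -0.01, Ndufa13 at 0.01, Ndufs5 at 0.03, Ndufb8 at 0.03, Ndufa9 at 0.05, Ndufb5 at 0.09 and Ndufb11 at 0.10. Of these only Ndufb9, of the membrane arm, was past its spread (0.11). Ndufa4, first counted with complex I and now known as a complex IV subunit, read 6.74 and 6.55 (-0.19, adjusted 0.15). By its symbol Ndufa4 was kept in the complex I counts here and is not in those of complex IV. Its hypoxia-associated paralog Ndufa4l2 had a mean under the floor (4.51 and 4.73), as had Ndufs4, Ndufb3 and Ndufb6.

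Complex II, succinate dehydrogenase, which also works in the tricarboxylic acid cycle, is the only complex here encoded wholly in the nucleus. Its genes were level or slightly higher: Sdha, the flavoprotein that oxidises succinate, read 5.51 and 5.60 (0.08). Sdhb, the iron-sulfur subunit, read 6.00 and 6.09 (0.09). The membrane anchor Sdhd read 5.55 and 5.62 (0.07) and the other anchor Sdhc 4.87 and 4.82 (-0.04). None of the 4 differences exceeded its spread (0.11 to 0.32). The median was 0.08 and became 0.17 after adjustment and 0.16 after quantile normalization; it stayed above 0 in each of the 10 alternatives. It was the highest median among the 5 complexes on the deposited scale, from 4 genes, and whether complex II differs from the others could not be tested with 1 array per genotype.

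Complex III and cytochrome c, the small carrier between complexes III and IV, were mixed. On the deposited scale Uqcrb, Uqcrc1, Uqcrfs1 and Cycs differed by more than their spread, and the other compared genes did not. Of 8 complex III genes 7 were compared, with 4 lower, 3 higher and a median of -0.04 that turned to 0.02 after adjustment. Uqcrb, the ubiquinone-binding subunit, read 6.45 and 5.70, the lowest difference among the members (-0.75, 1.68-fold lower, adjusted -0.55). Of the 20 features nearest to it in the file 0 were on the chromosome of the gene, so that a related copy cannot be told apart from Uqcrb itself. The core subunit Uqcrc1 read 5.66 and 5.31 (-0.34, spread 0.18), and its partner Uqcrc2 5.40 and 5.36 (-0.04). The electron-carrying subunits went slightly upward, with the Rieske protein gene Uqcrfs1 at 4.83 and 4.95 (0.12, spread 0.11) and the cytochrome c1 gene Cyc1 at 5.02 and 5.09 (0.07). Uqcrh (-0.04) and Uqcr11 (0.01) hardly differed, and Uqcrq had a mean under the floor. Cycs read 5.90 and 5.64 (-0.26) on its brightest feature, which was away from its locus; the feature at the locus read 4.94 and 4.93 (-0.01), and 3 more were under the floor, 2 of them with identical values.

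Complex IV, cytochrome c oxidase, was divided, 6 lower and 6 higher of 12 compared, out of 17 genes, with a median of -0.02 (adjusted 0.05). Cox6a1, a bright gene, read 7.84 and 7.29, a difference of -0.55 that became -0.08 after adjustment. Cox4i1, the largest nuclear subunit and a regulatory site for ATP, read 5.59 and 5.10 (-0.49, adjusted -0.44, spread 0.18). Cox7a2 read 5.33 and 4.98 (-0.35, adjusted -0.31) and Cox5a 6.06 and 5.75 (-0.31, adjusted -0.16). The last thus lay inside its spread of 0.24 once adjusted. Cox8a, at 6.80 and 6.91 (0.11), Cox5b, at 5.61 and 5.73 (0.12), and Cox7c, at 4.53 and 4.88 (at least 0.23, its control value being under the floor), went the other way. The adjusted differences of Cox8a and Cox5b were 0.50 and 0.23, and the former was above its spread of 0.32. Cox6b1, which links the monomers of the enzyme's dimer, read 5.64 and 5.60 (-0.04), and Cox7a2l, which joins complexes III and IV into supercomplexes, 5.54 and 5.39 (-0.16). Cox7b was under the floor on both arrays (4.40 and 4.38).

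Several complex IV subunits have isoforms that are restricted to particular tissues. Of 8 widely expressed subunits compared, 5 were lower and the median was -0.18 (adjusted -0.01). The restricted isoforms compared were Cox6a2 of heart and skeletal muscle (5.29 and 5.30), Cox4i2 of lung and oxygen-sensing cells (4.68 and 4.75) and Cox6b2 of testis (4.85 and 4.93). Their differences were 0.01, 0.07 and 0.08, all within the spread. The muscle isoforms Cox7a1 (4.67 and 4.57) and Cox8b (4.66 and 4.43) and the testis isoforms Cox7b2 (4.32 and 4.32) and Cox8c (4.34 and 4.37) had means under the floor. Of 8 markers of heart and skeletal muscle 8 were above the floor and 0 had a mean level over 6, with a summed signal of 8.23 and 8.28; whether these signals are background was not tested.

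ATP synthase had the lowest median of the complexes and 13 of 16 compared genes lower, with a median of -0.14 (adjusted -0.06, 10 of 16 lower). Of all genes 52.7% were lower, and 45.8% after adjustment. In the catalytic F1 head and central stalk 5 of 5 were lower, and 4 of 5 after adjustment. The beta subunit Atp5b, which holds the catalytic sites, read 7.12 and 6.75 (-0.36), close to the trend for its level (adjusted 0.03). The alpha subunit Atp5a1 read 5.37 and 5.21 (-0.16), the gamma subunit Atp5c1, the rotating shaft, 5.21 and 4.91 (-0.30, spread 0.18), and the delta subunit Atp5d 5.42 and 5.31 (-0.12). The epsilon subunit Atp5e read 6.33 and 5.78 (-0.55, adjusted -0.36, spread 0.32). Its other feature, also among neighbours of the gene, read 5.63 and 5.77 (0.14), so the direction for Atp5e was not shared by its features; that of Atp5d was not either (4.94 and 5.06 on the other feature).

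The c subunit, which forms the rotating ring in the membrane, is made from 3 genes whose mature proteins are known to be identical, with different import signals. Atp5g2 read 6.72 and 6.02 (-0.71, 1.63-fold lower, adjusted -0.43, spread 0.32). Its other feature, with 0 of 20 neighbours on the chromosome of the gene, read 6.45 and 5.87 (-0.59). Atp5g1 read 5.13 and 5.05 (-0.08) and Atp5g3 5.0 and 4.93 (-0.07), both inside the spread. In the peripheral stalk, which keeps the head from turning, Atp5h read 6.85 and 6.15 (-0.70, 1.62-fold lower). This came from a feature with 0 of 20 neighbours on the chromosome of the gene, and the feature at the locus was under the floor (4.35 and 4.44). Atp5j read 5.01 and 4.82 (-0.19), Atp5o 4.94 and 4.97 (0.02) and Atp5pb 4.78 and 4.84 (0.06). Of the small membrane subunits, which shape the dimer, Atp5l (subunit g) read 5.35 and 4.81 (-0.54, adjusted -0.51, spread 0.18) and Atp5j2 (subunit f) 4.83 and 5.05 (0.22, spread 0.11), in opposite directions. Atp5k (subunit e) read 6.64 and 6.53 (-0.11, adjusted 0.22), Atp5md 5.39 and 5.39, and Atp5mpl had a mean under the floor (4.69 and 4.60).

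**Figure D3:**
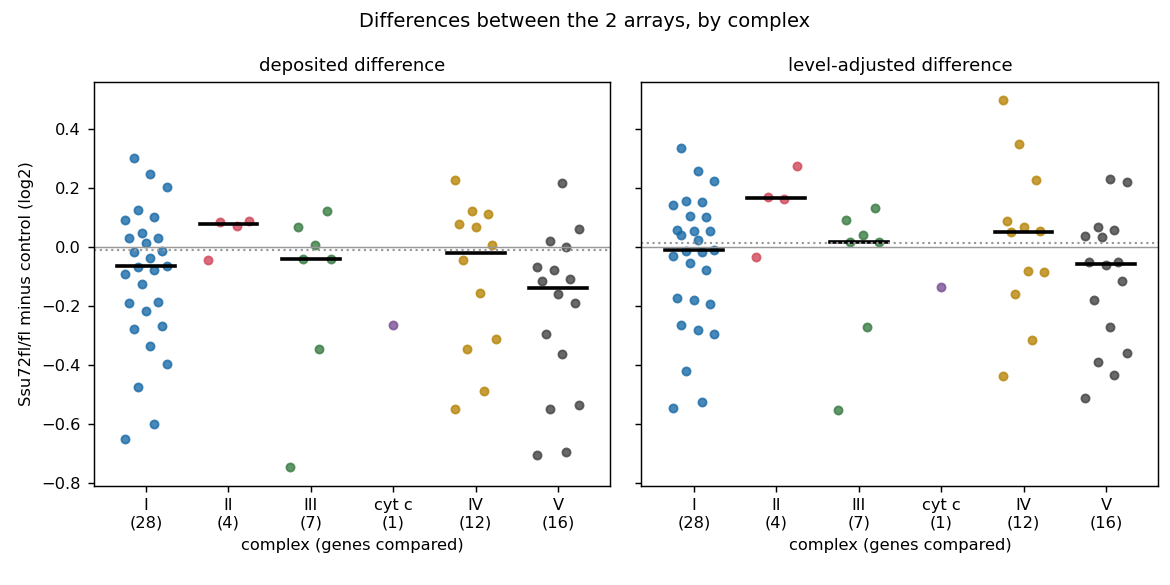
Differences (Ssu72fl/fl minus control, log2) of the 68 compared subunit genes by complex, as deposited on the left and level-adjusted on the right; black bars are medians, the dotted line is the median of all genes, and numbers in brackets count genes. Complex V has the lowest deposited median (-0.14) and complex II the highest (0.08); after adjustment the medians run from -0.06 in complex V to 0.17 in complex II.

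Genes with several features gave a check on how far a single value can be trusted. Of 10 such members, 7 had several features with a mean above the floor. Their differences had opposite signs in 4, Atp5d, Atp5e, Cox5b and Ndufa8, and like signs in 3, Atp5g2, Cycs and Ndufa11. In each of the genes with like signs, a feature of the pair lay away from its locus. In Atp5h, Cox7b and Ndufa12 at least 1 feature of the pair was under the floor, where a sign carries little. Cox5b was the widest, with 5.61 and 5.73 (0.12) on the feature used and 5.66 and 4.82 (-0.83) on another, which lay away from its locus. Ndufa8 was at -0.07 and 0.18 on features that both lay at the locus. Over all 376 genes with a pair of features whose means were above the floor, 50.8% had differences of like sign, with a median gap of 0.17; of 23 pairs above 5.5, 69.6% did. To place a feature, the chromosomes of the 20 nearest named features in the file were compared with that of its gene, and at least 15 had to match, as they did for 97.2% of named features. The feature used failed this in 4 members, Atp5h, Cycs, Ndufa11 and Uqcrb. Processed copies of respiratory genes are common in the mouse genome, and what these features hybridise with was not tested. With only features that passed, 41 of 66 compared members were lower, the median was -0.04 and 3 were at least 1.5-fold lower.

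**Figure D4:**
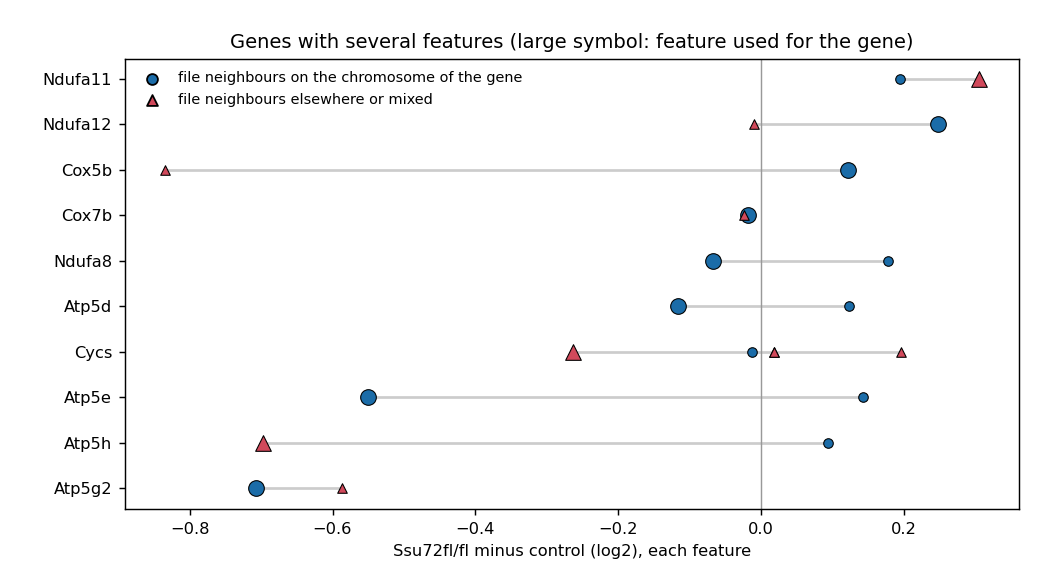
Differences (Ssu72fl/fl minus control, log2) of every feature of the 10 genes with several features. Large symbols are the features used. Circles have at least 15 of 20 file neighbours on the chromosome of the gene, and triangles have fewer. In Atp5h and Cox5b a triangle lies far to the left (-0.70 and -0.83) of the circle (0.09 and 0.12).

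Other genes of oxidative metabolism were set beside the subunits. Of 27 compared assembly factors (50 listed), which build the complexes but do not belong to them, 17 were higher (63.0%), beside 47.3% of all genes, and 10 were lower. Their median difference was 0.03 (adjusted 0.06). The list was dimmer than the subunits, with a median signal level of 4.92 against 5.29, and the 24 subunit genes at levels up to 5 had 15 higher and a median of 0.03. Of the factors 1 was lower by at least 0.32, Coa5 (6.34 and 5.93), a complex IV assembly factor. Cox14 (5.21 and 5.51), also of complex IV assembly, and Ndufaf8 (5.12 and 5.40), of complex I assembly, were highest among those above the floor on both arrays. Taco1 and Coa7, with control values under the floor, were higher by at least 0.27 and 0.23, and Pet100 (5.03 and 4.80) was next to lowest. All 3 compared factors of complex II assembly were higher, Sdhaf1 at 0.23, Sdhaf2 at 0.24 and Sdhaf4 at 0.03. Transcription factors and coactivators of nuclear respiratory genes had a median of -0.02 over 10 compared (17 listed, each with a feature), with 6 lower. Nrf1, Gabpa, Ppargc1a and Tfam were among those with a mean under the floor and were not compared. Yy1 (5.90 and 6.10) and the estrogen-related receptor gene Esrra (5.26 and 5.39) were highest, and the coactivator gene Ppargc1b (5.02 and 4.87) and Myc (5.38 and 5.28) lowest among those above the floor on both arrays. Hif1a (4.76 and 4.56), with its Ssu72fl/fl value under the floor, was lower by at least 0.11.

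Enzymes of the tricarboxylic acid cycle and pyruvate entry, succinate dehydrogenase left out, had 12 of 15 lower and a median of -0.10 (adjusted -0.06, 10 of 15 lower). The share lower over all genes was 52.7%, and 45.8% after adjustment. Malate dehydrogenase, Mdh2, read 6.15 and 5.55 (-0.60) and dihydrolipoamide dehydrogenase, Dld, 4.996 and 4.67 (-0.33), while Idh3g (0.11) and Pdha1 (0.11) were highest. Glycolysis enzymes had 7 of 11 lower and a median of -0.06 (adjusted 0.03), from Gapdh, at 8.31 and 7.81 (-0.50, adjusted -0.02), and Pkm (-0.21) to Tpi1 (0.12) and Pgam1 (0.06). Carriers and structural genes, mostly of the inner membrane, had 12 of 23 lower and a median of -0.0017 (adjusted 0.04). This list also holds the outer membrane genes Vdac1, Vdac2, Vdac3, Tomm20 and Tomm22. The ADP/ATP carrier Slc25a5 (7.004 and 6.56) and the channel Vdac3 (6.07 and 5.71) were lowest. Highest were the import receptor Tomm22 (4.77 and 5.18) and the citrate carrier Slc25a1 (5.42 and 5.57).

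**Figure D5:**
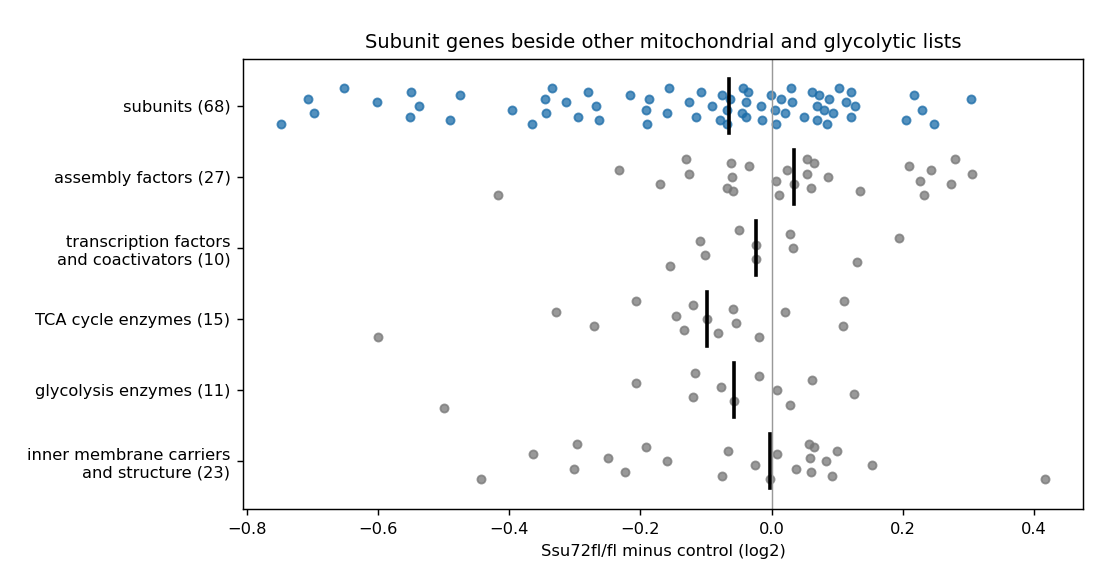
Differences (Ssu72fl/fl minus control, log2) of the 68 compared subunit genes (blue) beside 5 other lists (grey), with the number of compared genes in brackets and black bars at the medians. Medians run from -0.10 for tricarboxylic acid cycle enzymes, next to -0.07 for the subunits, to 0.03 for assembly factors, a dimmer list (median signal level 4.92 against 5.29).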

How the data were processed

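RNA of sorted alveolar macrophages was measured on 2 Affymetrix arrays, 1 per genotype label. The authors deposited 1 expression value per feature, from 4.23 to 13.5; this range is the basis for taking the deposited scale as log2. MAS5 is named in the submitters' processing notes with no role. How background was corrected and arrays normalized is not given here, and a compressed scale would make differences smaller. Scanner files and detection calls were not used here.

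Of 33793 features, 23521 carried 1 symbol in the platform annotation, 1814 several and 8458 none; 23328 were updated by Entrez identifier to RefSeq (GRCm38.p6). Values were floored at the 50th percentile, and genes with a mean above it were compared; differences of 0.32 (log2), 1.5-fold and 2-fold are sizes, not tests. The level trend was a lowess curve (span 0.3) through medians of level bins 0.25 wide. Members, lists, subunit roles and the naming rule (ends of each complex and list, core subunits, isoforms, genes with several features) were chosen with earlier results of these data known. The placement of features by file neighbours, and the promoter motifs in their present length, were chosen after the values were seen. Scripts (Python 3.11.15, pandas 2.3.3, statsmodels 0.14.6) were tested on simulated data.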

Additional observations from a re-analysis of the deposited data

How the results depend on the processing

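Each value rests on 2 arrays, and signal close to the floor limits the dim subunits. No paired analysis was possible because each genotype had 1 array. The count of members lower (43 of 68) ran from 34 to 52 under the 10 alternatives, with changing numbers compared. It was 34 of 68 (50%) after level adjustment and after quantile normalization, beside 45.8% and 48.1% of all genes. It was 34 of 44 (77.3%) with the floor at the 75th percentile, beside 59.3%, and 52 of 80 (65%) with no filter and no floor, beside 48.9%. The median difference of the members, -0.07, was -0.0055 after quantile normalization, turned to 0.0047 after level adjustment and was -0.16 over the 44 genes left with the floor at the 75th percentile. The count at least 1.5-fold lower, 5, became 0 after quantile normalization, 0 after level adjustment and 3 with only features at their locus; it was 15 at a threshold of 0.32 (log2) and 0 at a 2-fold threshold. The count at least 1.5-fold higher was 0 in each setting. The complex III median turned to 0.0123 after quantile normalization and 0.0179 after level adjustment, and that of complex IV, -0.02, to 0.0454 and 0.0528. The complex IV median was also further below 0 in places, at -0.16 under the 75th percentile floor, -0.08 under the 25th percentile floor and -0.10 for the mean of all features. Of 68 single genes, 9 changed sign after level adjustment and 9 after quantile normalization, 3 with the mean of all features and 2 with median centring. Beyond the scaling itself, the cause of these changes was not tested.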
